A study of Mus musculus with 12 samples.

Results

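The C/EBP transcription factors and PU.1 are the regulators that give macrophages much of their identity, and they were followed here through 6 genes: Cebpa, Cebpb, Cebpd, Cebpg, Cebpz and Spi1. Genes were chosen by symbol, and all 6 were found among the 50559 symbols of the count table. All 6 were also among the 13530 genes that passed the filter on low counts. The cells were bone marrow-derived macrophages of C57BL/6 mice, which are grown in culture from marrow progenitors. Of the 12 libraries, 6 came from cells given allergen of the house dust mite (HDM), a common trigger of airway allergy, and 6 from cells given vehicle, each for 1 h. The labels name no genetic change in either group and give neither the age of the mice nor what a library number marks. Whether each library is its own animal or culture is not said either, and the spread behind every p-value may then be technical. Library totals of counted reads ran from 19.8 to 119.7 M for HDM and from 19.7 to 62.4 M for vehicle. Libraries numbered 5 and 6 of both treatments stood apart from the others on the first principal component, at 21.1 to 29.1 against -17.7 to -7.26. Results are therefore also given for these classes.

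C/EBP proteins are basic leucine zipper factors that bind DNA as dimers. C/EBPα drives the commitment of progenitors to the granulocyte and monocyte lineage, while C/EBPβ and C/EBPδ are made or activated during inflammation and switch on cytokine and acute phase genes. C/EBPγ has the zipper but little activating sequence of its own, and serves mainly as a dimer partner. Cebpz carries the family's name but encodes a protein without the basic zipper, related to yeast factors of ribosome assembly. Spi1 encodes PU.1, an ETS family factor that opens macrophage enhancers, where C/EBPs bind beside it.

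The kinship of the 4 zipper genes can be read from the stretch of coding sequence that is most alike between them, which encodes the DNA-contacting basic region and the start of the zipper. It is shown because reads from such a stretch are those most likely to be shared between family members. Sequences are from the GENCODE M21 transcripts (GRCm38), 5′ to 3′ on the coding strand, with capitals for the 42 of 90 bases that are the same in all 4 genes. Cebpb lies at chr2:167689703-167689792 (plus strand), Cebpa at chr7:35120283-35120372 (plus), Cebpd at chr16:15887913-15888002 (plus) and Cebpg at chr7:35050546-35050635 (minus), each within 1 exon.
Cebpb: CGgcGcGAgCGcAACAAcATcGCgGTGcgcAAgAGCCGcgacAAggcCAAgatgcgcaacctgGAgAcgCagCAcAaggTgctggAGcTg
Cebpa: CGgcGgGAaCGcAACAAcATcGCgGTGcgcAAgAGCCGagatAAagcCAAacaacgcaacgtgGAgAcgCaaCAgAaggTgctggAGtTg
Cebpd: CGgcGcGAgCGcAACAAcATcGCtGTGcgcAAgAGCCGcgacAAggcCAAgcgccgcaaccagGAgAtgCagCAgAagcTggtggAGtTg
Cebpg: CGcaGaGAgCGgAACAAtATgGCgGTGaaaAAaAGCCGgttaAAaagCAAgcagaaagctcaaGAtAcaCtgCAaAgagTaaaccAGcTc

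Measured against Cebpb in this window, Cebpd shared 80 of 90 bases (88.9%), Cebpa 77 (85.6%) and Cebpg 51 (56.7%). The best in-frame window of Cebpz shared 37 bases (41.1%) and that of Spi1 42 (46.7%). The longest run of identical bases between any pair of the 6 transcripts compared was 29, between Cebpa and Cebpb, followed by 27 between Cebpb and Cebpd. All other pairs shared runs of 11 to 14 bases. Read length is not given in the sources used here.

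After 1 h of HDM, Cebpd was the member that rose, by 2.52-fold (95% interval 1.98 to 3.20). Cebpb averaged 1.43-fold higher with HDM and was higher in all 6 library numbers, but it missed the threshold in the test of group alone and passed it when libraries of the same number were compared with each other. Cebpa, Cebpg, Cebpz and Spi1 lay within 10% of equal levels in their averages. The test was edgeR's quasi-likelihood test across all 13530 genes, with a gene called at an adjusted p under 0.05. It called 1 of the 6 members, Cebpd, against 5.37% of all tested genes in either direction and 2.9% in the upward direction. None of the 6 was called lower, against 2.47% of tested genes.

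Cebpd encodes C/EBPδ, a factor of the acute phase response that in mouse macrophages helps to sustain Il6 transcription. In HDM libraries it ran from 6.36 to 10.5 CPM (counts per M reads, with TMM scaling), with a median of 8.41. In vehicle libraries it ran from 2.47 to 4.31 CPM, with a median of 3.39. Every HDM library lay above every vehicle library, which held for 2.32% of tested genes and for no other member. All 6 HDM libraries lay below all 6 vehicle libraries for 0 members and for 2.07% of tested genes. Cebpd averaged 8.47 ± 1.59 CPM under HDM and 3.35 ± 0.769 CPM under vehicle (SD, n = 6 per group). On the log2 scale the change was 1.33 ± 0.16 SE, with an adjusted p of 0.000172 in edgeR. These levels rest on 2681 reads in the HDM libraries together and 857 reads in the vehicle libraries together. Among the 393 genes that rose, Cebpd ranked 86th by fold change, above their median log2 fold change of 0.48.

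Within the 6 library numbers, the ratio of HDM to vehicle for Cebpd was lowest in number 3 (1.87) and highest in number 2 (3.13). The same-number ratios were 2.84 in number 1, 2.14 in number 4, 2.56 in number 5 and 3.02 in number 6. Numbers 3 and 4 gave the smallest ratios and had the highest vehicle levels, 4.06 and 4.31 CPM, while their HDM levels, 7.58 and 9.23 CPM, lay inside the range of the others.

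**Figure D1:**
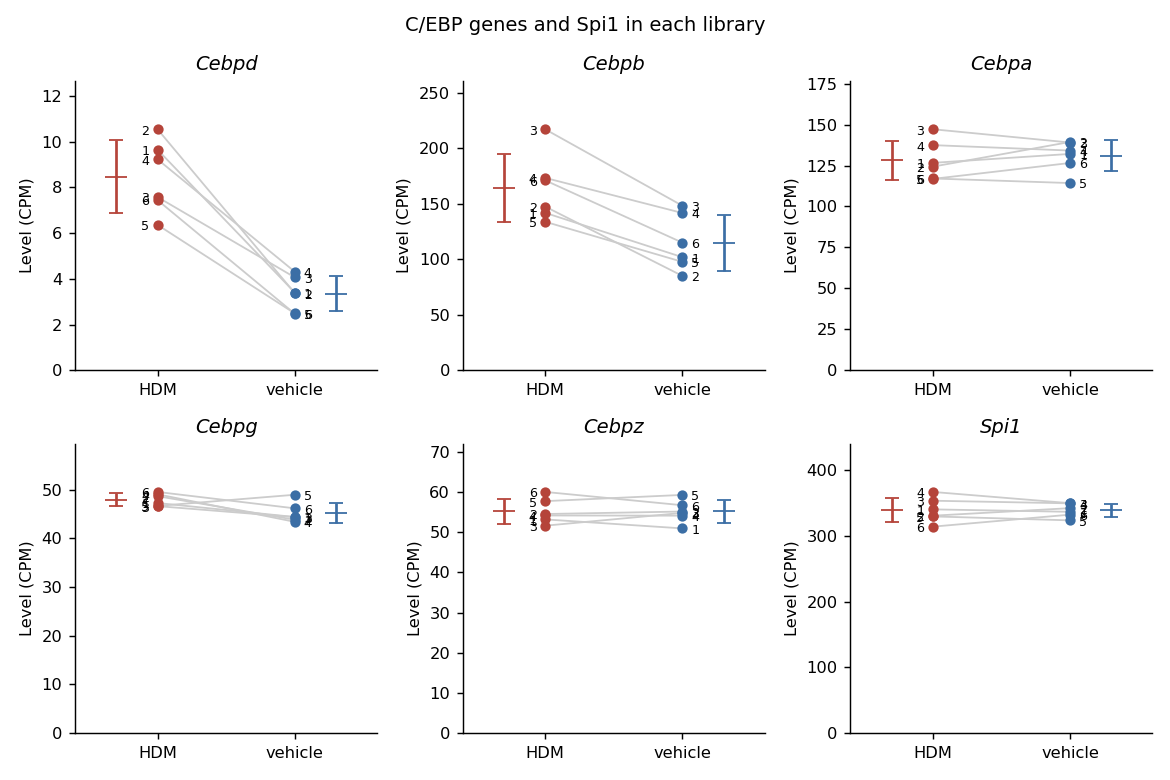
Level in CPM (vertical axes, from 0) of each gene in the 6 HDM libraries (red, left) and the 6 vehicle libraries (blue, right). Small digits are library numbers, grey lines join equal numbers and bars show mean and SD, and the groups part fully for Cebpd (6.36 to 10.5 against 2.47 to 4.31 CPM) but overlap for Cebpb.

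Cebpb encodes C/EBPβ, which is needed for inflammatory gene induction and for the bactericidal functions of macrophages. Its levels in HDM libraries ran from 134 to 217 CPM, with a median of 159. In vehicle libraries they ran from 85.0 to 148 CPM, with a median of 108. Here the groups overlapped: the HDM libraries numbered 1, 2 and 5, at 142, 148 and 134 CPM, lay no higher than the highest vehicle library, number 3. Mean levels were 164 ± 30.5 CPM under HDM and 115 ± 25.3 CPM under vehicle (SD, n = 6 per group). The log2 fold change was 0.51 ± 0.15 SE with a 95% interval of 0.19 to 0.84 (adjusted p = 0.0712 by edgeR), so the gene was not called.

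The levels of Cebpb under HDM and vehicle were also set side by side by library number. Number 3 was the highest of its group in both treatments, at 217 CPM with HDM and 148 with vehicle. The ratio of HDM to vehicle was 1.39, 1.74, 1.47, 1.22, 1.37 and 1.49 in numbers 1 to 6, so HDM was higher in 6 of 6. With the library number as a block, the log2 fold change was 0.52 ± 0.04 SE and the adjusted p was 1.46e-07 (edgeR). This SE and p rest on a spread that edgeR partly takes from other genes. They also take equal numbers as pairs, which was not established. The same-number ratios of Cebpb itself ran from 0.29 to 0.80 on the log2 scale. The block fit called 2 of the 6 members, Cebpd and Cebpb, against 14.7% of all tested genes in either direction and 7.9% upward, and it called 0 members lower, against 6.81%. A ratio above 1 in all 6 numbers was found for the same 2 members and for 8.98% of tested genes. Cebpb also passed with DESeq2 (adjusted p = 0.0107) and in edgeR without the vehicle library numbered 3, the highest of its group (0.0392). It did not pass with limma-voom (0.0620). Of its 30 alternatives 13 called it and 17 did not, and of the 12 fits that left out a library 1 did. Most of the calls came from block fits added after the data were seen. Over the 30 alternatives the adjusted p ran from 6.16e-14 to 0.156, with a log2 fold change of 0.42 to 0.60.

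**Figure D2:**
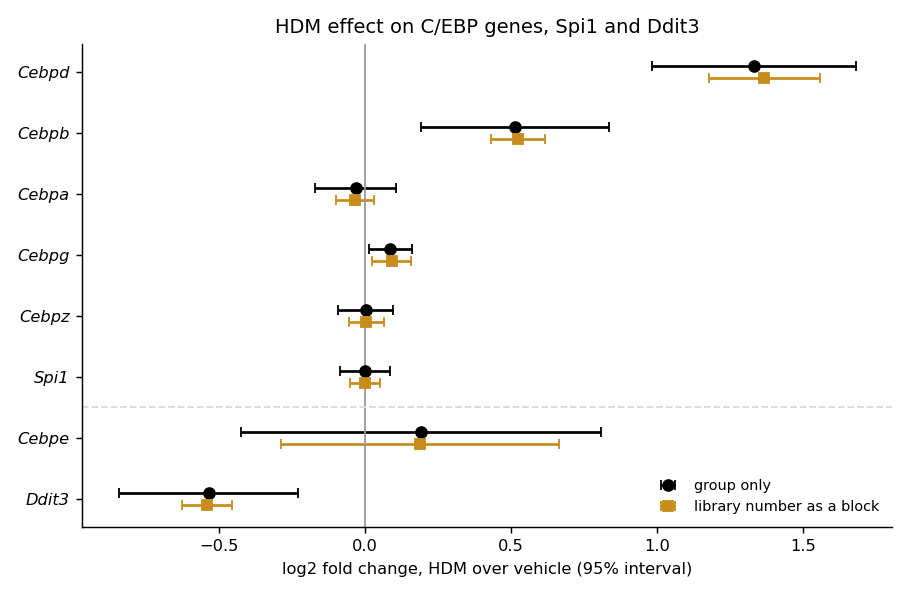
Log2 fold change of HDM over vehicle (horizontal axis, bars are 95% intervals) for the 6 genes and, under the dashed line, for Cebpe and Ddit3, fitted with group only (circles) and with the library number as a block (squares). Estimates differ little between the fits, while the interval of Cebpb narrows from 0.19 to 0.84 without the block to 0.43 to 0.62 with it.

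Cebpa encodes C/EBPα, the founder of the myeloid programme. It stood at 117 to 147 CPM with HDM (median 125) and at 114 to 139 CPM with vehicle (median 133). Mean levels were 128 ± 11.97 CPM under HDM and 131 ± 9.43 CPM under vehicle (SD, n = 6 per group), and Cebpa was higher with HDM in 3 of 6 numbers. The log2 fold change was -0.03 ± 0.06 SE (adjusted p = 0.997 by edgeR), and its 95% interval of -0.17 to 0.11 excludes a change as large as that of Cebpd in either direction.

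The read ratio of Cebpa to Cebpb within a library does not depend on scaling between libraries. It ran from 0.677 to 0.892 in HDM libraries and from 0.937 to 1.64 in vehicle libraries, so the groups did not overlap and HDM was lower in 6 of 6 numbers. In vehicle libraries 4 of 6 had more reads from Cebpa than from Cebpb, and in HDM libraries none of 6 did. These are reads not scaled for length, and Cebpa has 2636 exon bases against 1504 for Cebpb. Per kb of exon and M reads, Cebpb lay above Cebpa in every library of both groups. The ranges were 56.5 to 98.6 against 43.4 to 52.9 with vehicle and 89.0 to 145 against 44.3 to 55.8 with HDM. Reads of Cebpb per read of Spi1 averaged 0.484 ± 0.0811 with HDM and 0.338 ± 0.0672 with vehicle (SD, n = 6 per group), higher with HDM in 6 of 6 numbers. Reads of Cebpd per read of Cebpb averaged 0.0531 ± 0.0142 with HDM and 0.0296 ± 0.00639 with vehicle, also higher in 6 of 6. These ratios are descriptions of genes already chosen and carry no test.

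**Figure D3:**
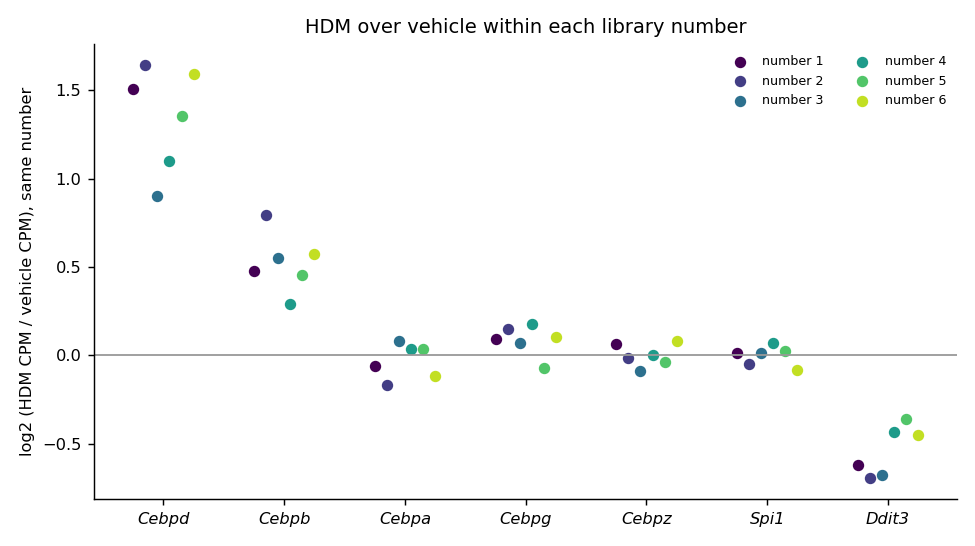
Log2 ratio of the HDM to the vehicle level in CPM (vertical axis) within each library number (colours) for the 6 genes and Ddit3. All 6 numbers lie above 0 for Cebpd and Cebpb and below 0 for Ddit3, while Cebpg lies above 0 in 5 of 6 and the other genes on both sides.

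Cebpg, the gene of the dimer partner, stood at 46.6 to 49.5 CPM with HDM (median 47.9) and at 43.4 to 48.9 CPM with vehicle (median 44.3). HDM was higher in 5 of 6 numbers, with number 5 the exception. The log2 fold change was 0.09 ± 0.03 SE (adjusted p = 0.230 by edgeR, and 0.0669 with the block), with a 95% interval of 0.01 to 0.16. It was called with libraries 1 to 4 alone, at 0.13 ± 0.03 SE (adjusted p = 0.0308), and in numbers 5 and 6 alone it was at 0.03 (adjusted p = 0.858). The difference between these classes of libraries was not called (-0.10 ± 0.06 SE, adjusted p = 0.864).

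Cebpz, the member without a zipper, had 55.3 ± 3.11 CPM under HDM and 55.2 ± 2.78 CPM under vehicle (SD, n = 6 per group). The log2 fold change was 0.00 ± 0.04 SE (adjusted p = 1.00 by edgeR), with an interval of -0.09 to 0.10. Spi1 had 339 ± 18.8 CPM with HDM, between 314 and 367, and 339 ± 10.2 with vehicle, between 324 and 350. Its log2 fold change was 0.00 ± 0.04 SE (adjusted p = 1.00), with an interval of -0.08 to 0.09, or 0.943-fold to 1.06-fold.

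Levels of different genes are comparable only per length of transcript, so CPM was divided by the exon bases of each gene in GENCODE M21. On this scale (reads per kb per M) Spi1 was highest, at 126 ± 6.99 with HDM and 126 ± 3.80 with vehicle. Cebpb followed at 109 ± 20.3 with HDM and 76.4 ± 16.8 with vehicle. In HDM libraries the ranges of these neighbours overlapped, at 117 to 136 for Spi1 and 89.0 to 145 for Cebpb. In vehicle libraries they did not, at 120 to 130 for Spi1 and 56.5 to 98.6 for Cebpb. Cebpa came next at 48.6 ± 4.54 with HDM and 49.7 ± 3.58 with vehicle. Cebpz lay at 11.9 ± 0.667 with HDM and 11.9 ± 0.596 with vehicle, and Cebpg at 8.53 ± 0.227 with HDM and 8.03 ± 0.370 with vehicle. The member that rose, Cebpd, was the least abundant, at 2.26 ± 0.423 with HDM and 0.894 ± 0.205 with vehicle. These exon lengths were 2695 bases for Spi1, 1504 for Cebpb and 3746 for Cebpd, and the transcript forms in use were not measured.

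**Figure D4:**
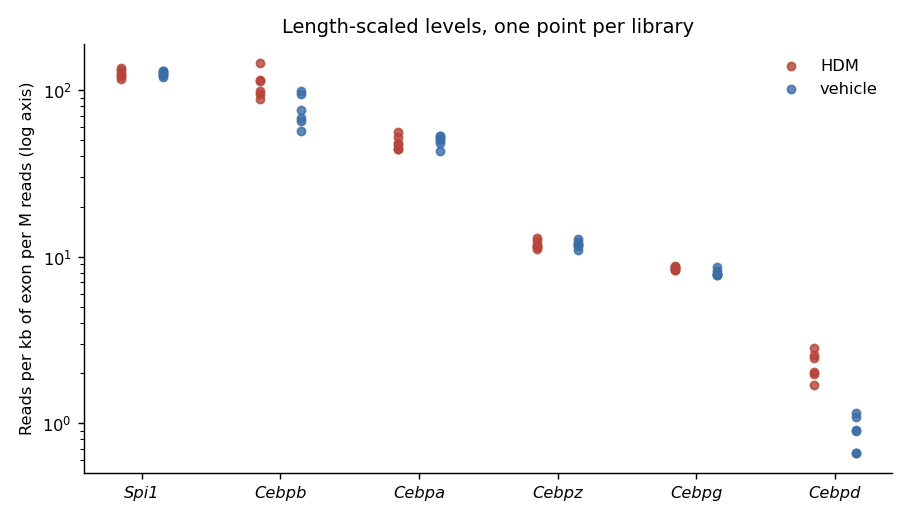
Reads per kb of exon per M reads (vertical log axis) of each gene, 1 point per library, with HDM (red) left of vehicle (blue). Spi1 and Cebpb lead, and Cebpd is lowest in both groups, at 1.70 to 2.82 with HDM and 0.659 to 1.15 with vehicle.

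Several members overlap a gene on the opposite strand, and the strand setting of the counting is not given in the sources used here. In GENCODE M21, 312 exon bases of Cebpb (20.7% of its exons) are also exonic in Tmem189. That gene had 271 ± 44.0 CPM with HDM and 269 ± 58.2 with vehicle (SD, n = 6 per group), and its log2 change was 0.01 ± 0.14 SE (adjusted p = 1.00 by edgeR). Cebpd shares 562 exon bases (15%) with Spidr, which had 30.1 ± 3.01 CPM with HDM and 30.1 ± 3.18 with vehicle (0.00 ± 0.08 SE, adjusted p = 1.00). Cebpz shares 171 exon bases (3.67%) with Cebpzos, at 6.88 ± 0.403 CPM with HDM and 6.71 ± 0.660 with vehicle (0.04 ± 0.07 SE, adjusted p = 0.992). None of these 3 partners was called. Smaller overlaps were found for Cebpa, with 51 exon bases (1.93%) shared with Gm45091 on the opposite strand, and for Cebpg. Cebpg shares 73 exon bases (1.3%) with Gm44836 on its own strand, which no strand setting would separate. Gm45091 and Gm44836 are not in the count table. Gm45095, on the strand opposite to Cebpg with 4 shared exon bases, was not called (0.18 ± 0.24 SE, adjusted p = 0.944 by edgeR).

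RefSeq promoters (GRCm38.p6) were at hand for Cebpb, Cebpa and Cebpg, and the 250 bases before the annotated start are shown to let the start regions of these relatives be compared. Each is written 5′ to 3′ on the strand of the gene, and capitals mark matches to the motifs named after them.
Cebpb, chr2:167688665-167688914, plus strand: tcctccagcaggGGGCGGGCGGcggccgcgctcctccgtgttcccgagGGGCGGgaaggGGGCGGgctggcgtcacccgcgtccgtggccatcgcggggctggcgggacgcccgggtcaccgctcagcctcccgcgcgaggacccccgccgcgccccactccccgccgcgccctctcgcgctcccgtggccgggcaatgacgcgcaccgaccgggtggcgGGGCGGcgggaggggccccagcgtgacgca
Cebpa, chr7:35119043-35119292, plus strand: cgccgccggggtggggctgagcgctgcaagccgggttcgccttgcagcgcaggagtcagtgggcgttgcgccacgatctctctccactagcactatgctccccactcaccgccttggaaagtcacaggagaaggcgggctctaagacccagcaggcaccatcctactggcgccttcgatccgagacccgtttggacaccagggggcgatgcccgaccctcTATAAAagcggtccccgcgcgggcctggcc
Cebpg, chr7:35056567-35056816, minus strand: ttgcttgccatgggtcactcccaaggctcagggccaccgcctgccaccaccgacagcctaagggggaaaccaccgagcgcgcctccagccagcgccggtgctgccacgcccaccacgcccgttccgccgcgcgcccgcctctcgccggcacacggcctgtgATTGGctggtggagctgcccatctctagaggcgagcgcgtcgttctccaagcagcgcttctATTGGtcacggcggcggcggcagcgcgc

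The window of Cebpb was 81.6% G and C and held 5 matches to CCGCCC, the letters bound by SP factors, all on the opposite strand and the first pair overlapping. CCGCCC occurs in 32.7% of the 32851 promoters in the RefSeq table. The window of Cebpa (66.4% G and C) held 1 TATAAA, from base -30 to base -25, a motif of 12.4% of promoters. The window of Cebpg (70.8% G and C) held 2 matches to CCAAT on the opposite strand, a motif of 33.8% of promoters. Of the other motifs searched on both strands, GGAA, found in 93.4% of promoters, occurred in all 3 windows and is not marked. GAGGAA, TGACGTCA, TGACGCAA, TTGCGCAA, TTGCNNAA, GGAANTTCC, GGGANTTTC and TTCNNNGAA were not found in these windows. These are letter matches and say nothing on binding.

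Beside the 6 genes the family holds Cebpe, the gene of the granulocyte factor C/EBPε, and Ddit3, which encodes CHOP, a stress-induced relative that dimerises with C/EBPs and blocks their binding to the usual sites. Cebpe was barely detected, at 0.533 ± 0.138 CPM with HDM and 0.464 ± 0.202 with vehicle (SD, n = 6 per group). Its log2 fold change of 0.19 had an interval of -0.43 to 0.81 (adjusted p = 0.960 by edgeR). Ddit3 fell, with 31.8 to 52.7 CPM in HDM libraries (median 42.5) and 49.4 to 74.8 in vehicle libraries (median 56.1). It was lower with HDM in 6 of 6 numbers although the groups overlapped. Its log2 fold change was -0.53 ± 0.14 SE (adjusted p = 0.0459, and 3.88e-08 with the block). Without the block its call was lost in 10 of the 12 fits that left out a library, with adjusted p of 0.0525 to 0.108. The call held there only without the HDM library numbered 4 or the vehicle library numbered 1.

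The other genes of the network were grouped in lists, described by counts and medians beside the 5.37% called and the median log2 change of 0.00 over all tested genes. An unadjusted p under 0.05 was found for 14% of all tested genes, 1889 of 13530, and the block fit called 14.7%. Of 17 tested bZIP factors that pair with C/EBPs or bind related sites, 5 rose and 3 fell, and the median was 0.07. With the block 6 were called higher and 4 lower. Fos, the gene of an AP-1 subunit, had 630 ± 64.4 CPM with HDM and 98.8 ± 45.3 with vehicle (SD over 6 libraries each; log2 change 2.68 ± 0.25 SE, adjusted p = 1.79e-05 by edgeR). Nfil3, a repressor gene of the family of clock output factors, had 88.4 ± 20.3 CPM with HDM and 21.0 ± 9.34 with vehicle (log2 change 2.09 ± 0.26 SE, adjusted p = 0.000204). Jun, the gene of a second AP-1 subunit, rose by 0.75 ± 0.05 (adjusted p = 6.92e-07), Junb by 0.72 ± 0.15 (0.00981) and the stress-induced Atf3 by 0.22 ± 0.05 (0.0147). The effect on Fos was smaller in numbers 5 and 6 (2.17) than in numbers 1 to 4 (3.09), a difference that was called (adjusted p = 0.0320). With the block, the difference was also called for Nfil3 (1.80 in numbers 5 and 6, 2.33 in numbers 1 to 4, adjusted p = 0.00307) and Junb (0.57 and 0.83, 0.0310). Besides Ddit3, the stress factor gene Atf4 fell by 0.20 (adjusted p = 0.0423) and the clock output gene Dbp by 0.47 (0.0203), both named after their values were seen.

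Among 17 tested partners and lineage regulators, 5 rose and none fell, with a median of 0.20. At an unadjusted p under 0.05 there were 7, or 41.2% against 14% of all tested genes, all higher. With the block 10 were called higher and none lower. The risers were Nr4a1, an orphan nuclear receptor gene (3.19 ± 0.21 SE, adjusted p = 4.78e-07 by edgeR), Jun, Klf4 (1.14 ± 0.27, 0.0235), Zeb2 (0.28 ± 0.07, 0.0370) and the repressor gene Bcl6 (0.26 ± 0.04, 0.00289). The calls of Klf4 and Zeb2 were lost in 6 and 7 of the 12 fits without 1 library. The block fit called a smaller effect in numbers 5 and 6 than in numbers 1 to 4 for Klf4 (0.85 and 1.40, adjusted p = 0.000244) and Nr4a1 (2.99 and 3.34, 0.0142). Irf8, which encodes a partner of PU.1, had an estimate of 0.10 ± 0.05 (adjusted p = 0.475; block fit 0.00745), and Runx1 had 0.20 ± 0.06 (0.112, and 0.000199 with the block). Both are named after their values were seen.

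Of 16 tested ETS factors other than PU.1, 2 rose and none fell, with a median of 0.07. An unadjusted p under 0.05 was found for 4 (25%, against 14% of all tested genes), and the block fit called 5 higher and 1 lower. Ets2, a target and effector of MAP kinases, had 294 ± 30.5 CPM with HDM and 188 ± 14.5 with vehicle (SD over 6 libraries each; log2 change 0.64 ± 0.07 SE, adjusted p = 7.33e-05 by edgeR). The repressor gene Etv3 was at 0.20 ± 0.05 (adjusted p = 0.0405), a call lost in 8 of the 12 fits without 1 library. Elk4 was at -0.23 ± 0.08 (0.124, and 0.0237 with the block), Elk1 at 0.14 ± 0.06 (0.318, and 0.00812 with the block) and Spic, a close relative of Spi1, at 0.26 ± 0.15 (0.509).

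Of 21 tested regulators of C/EBP proteins or transcription, 1 rose and none fell, with 2 at an unadjusted p under 0.05 (9.52%, against 14% of all tested genes). With the block 3 were called higher and 1 lower, Trib3, at -0.17 ± 0.04 SE (adjusted p = 0.00381), a gene picked here for that call. The gene that rose in both fits was Trib1, the gene of a pseudokinase that brings C/EBPα to the ubiquitin ligase COP1 for degradation. Trib1 had 75.0 ± 2.48 CPM with HDM and 29.3 ± 3.68 with vehicle (SD over 6 libraries each; log2 change 1.35 ± 0.07 SE, adjusted p = 7.19e-08 by edgeR), a change about as large as that of Cebpd. The coactivator gene Ep300 was at 0.17 ± 0.05 (adjusted p = 0.102; block fit 0.000268), Eif4e at 0.08 ± 0.04 (0.382) and Mapk14, the gene of the kinase p38α, at 0.04 ± 0.02 (0.478).

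Inflammatory genes with known C/EBP sites rose in 10 of 19 tested cases and none fell, with a median of 1.23. An unadjusted p under 0.05 was found for 11 (57.9%, against 14% of all tested genes), and the block fit called 11 higher and none lower. The effect on Ptgs2, the prostaglandin synthase gene, differed between numbers 5 and 6 and numbers 1 to 4 by -1.22 ± 0.18 SE (adjusted p = 0.0111 by edgeR). With the block such a difference was also called for Tnf (4.13 in numbers 5 and 6, 3.52 in numbers 1 to 4, adjusted p = 0.0463) and Ccl2 (1.43 and 1.75, 0.00291). The list was drawn up with the strong cytokine response of these libraries known. The smallest p-values were those of the chemokine genes Ccl2 (1.63 ± 0.06 SE, adjusted p = 1.64e-09) and Cxcl1 (6.52 ± 0.43, 4.94e-07) and of Tnf (3.73 ± 0.13, 1.95e-09), Il6 (8.48 ± 0.52, 3.19e-07, from 2636 reads with HDM and 6 with vehicle) and Il1b (7.32 ± 0.55, 2.25e-06). Of 30 macrophage genes bound by PU.1, all tested, edgeR called none, with 0 at an unadjusted p under 0.05. The block fit called 1, the cytokine receptor gene Csf2rb, at -0.14 ± 0.03 SE (adjusted p = 0.00396), against -0.16 ± 0.26 without the block (0.973). It was named after its value was seen. Their median was -0.01 and their estimates ran from -0.16 to 0.04. The smallest p-values were those of Btk (-0.03 ± 0.02, adjusted p = 0.799), Csf2ra (-0.04 ± 0.03, 0.837) and Laptm5 (-0.04 ± 0.04, 0.859).

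**Figure D5:**
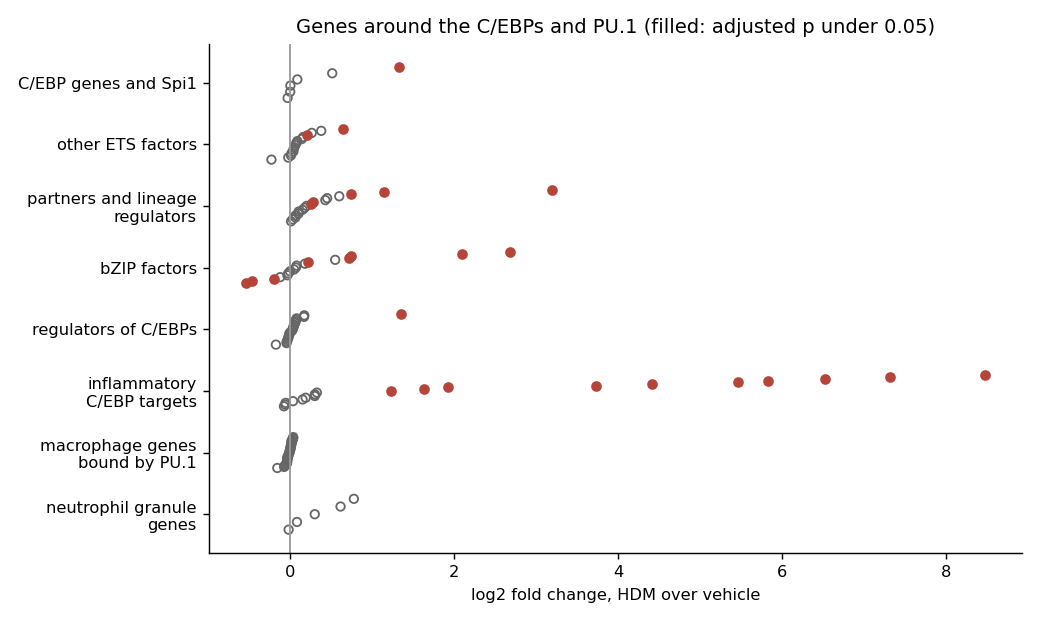
Log2 fold change of HDM over vehicle (horizontal axis) of each tested gene of the lists (rows, each point a gene), filled where the adjusted p is under 0.05. Cebpd is the filled point of the top row, the inflammatory targets reach 8.48, and the 30 macrophage genes bound by PU.1 lie between -0.16 and 0.04.

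The genes whose levels followed those of Cebpd most closely over the 12 libraries were sought among 10800 tested genes whose mean level reached 1 CPM. The members and genes without a descriptive symbol (such as Gm and Rik names) were left out of these. The closest were Il10 (Pearson r = 0.980), Dusp6 (0.975) and Zfp36l1 (0.974). Il10 encodes an anti-inflammatory cytokine, Dusp6 an ERK phosphatase and Zfp36l1 a protein of mRNA decay. They rose with HDM too, by 4.41, 1.22 and 1.74 on the log2 scale, and the treatment difference is part of these r values. With the group means removed they were 0.872, 0.825 and 0.835. This leaves the split of numbers 5 and 6 from numbers 1 to 4 in place. Cebpd was lowest in numbers 5 and 6 of both groups, at 6.36 and 7.45 CPM with HDM and 2.49 and 2.47 with vehicle. Il10 was lowest in number 5 of both groups, at 13.1 CPM with HDM and 0.311 with vehicle. The part of this split in the r values was not tested. For Cebpb, added although it was not called by group alone, the closest were Marcks (0.945), Tcf7l2 (0.936) and Fam107b (0.933), and with the group means removed 0.935, 0.879 and 0.868. Libraries of one number and of one group share their spread, so these values describe the 12 libraries.

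Between the classes of libraries that stood apart, the HDM effect on Cebpd was 1.32 ± 0.11 SE in numbers 1 to 4 and 1.47 ± 0.14 in numbers 5 and 6. That on Cebpb was 0.51 (adjusted p = 0.0964 by edgeR) and 0.50 (2.52e-08). The last p rests on 2 libraries per group, at 134 and 171 CPM with HDM and 97.7 and 115 with vehicle. It also rests on a spread that edgeR partly takes from other genes, so it is no measure of the spread of Cebpb alone. The difference between the classes was called for none of the 6 members, against 0.0813% of tested genes, also with the block (0.473%). Macrophage markers summed to 20510 to 24539 CPM with HDM and 20715 to 24947 with vehicle, with all 12 tested and none called (0 at an unadjusted p under 0.05). Of these markers Adgre1, Csf1r, Cd68, Fcgr1, Lyz2, Itgam and Mpeg1 are also in the list of macrophage genes bound by PU.1, so the 2 lists are not independent. Neutrophil markers, many of them C/EBP targets in granulocytes, summed to 43.8 to 115 CPM with HDM and 43.8 to 104 with vehicle, mostly from Mmp8 (means 67.1 with HDM and 63.7 with vehicle), with 5 of 14 tested, none called and Retnlg at 0. Without the vehicle library numbered 3, which also gives Cebpb its call, Ngp was called at 2.70 (adjusted p = 0.0319) and S100a9 at 2.09 (0.0429), against 0.78 and 0.61 with it. With DESeq2 and the block S100a9 was called too (1.44, 0.0256). Of the other tested neutrophil markers, Lcn2 was at 0.30, Mmp8 at 0.08 and S100a8 at -0.02 with all libraries, none called. S100a8 had more reads than Ngp or S100a9, 1243 with HDM and 1057 with vehicle. Mmp8 and S100a8 were not run without that vehicle library. The part of these markers in the result for Cebpb was not tested. Summed levels were at most 1.61 CPM for 8 dendritic cell markers, 5.15 for 10 lymphocyte markers with Trac at 0, and 6.59 for 10 mast cell, basophil and eosinophil markers with Mcpt8, Tpsb2, Fcer1a and Ms4a2 at 0. Stroma and endothelium markers summed to 14.5 to 39.5 CPM with HDM and 13.0 to 42.0 with vehicle (2 of 5 tested fell with the block alone), and erythroid and megakaryocyte markers to 103 to 197 with HDM and 97.4 to 187 with vehicle, nearly all Pf4 (means 159 with HDM and 153 with vehicle), with Hbb-bs, Hbb-bt, Hba-a1 and Gp1bb among those at 0. In such bulk samples, fewer cells of a type and less RNA per cell cannot be told apart. Counts per gene do not separate the long and short protein forms that the Cebpa and Cebpb messages each give.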

How the data were processed

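The authors deposited unscaled read counts for each gene symbol in 12 columns, which were matched to libraries by name. Libraries came from a stranded mRNA kit, per the labels' protocols. The submitters' processing notes list, without roles, STAR 2.6.0c, featureCounts 2.0.6, Subread, Trim Galore 0.6.10, FastQC 0.12.1 and cutadapt 4.5. They name both mm39 and GRCm38 as builds without saying which was used, and neither strand setting nor annotation release is given in the sources used here. No coordinates of the counted genes are known, and those printed belong to the reference sequences.

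Counts were tested with edgeR 4.0.16 (quasi-likelihood, TMM, filterByExpr, group only, Benjamini-Hochberg over 13530 genes) in R 4.3.3. The fits with and without the block were first run on simulated counts. Those counts held neither number classes nor pairs, so that run cannot vouch for either fit on these libraries. Alternatives used DESeq2 1.42.0 and limma 3.58.1. SE is the absolute log2 fold change over the square root of F. A pseudocount of 0.5 CPM was used for the likeness, pairing and principal components. Genes named are the members, up to 5 called genes with the smallest p per list, up to 3 more where under 3 were called, Cebpe, Ddit3, overlapping genes and the 3 closest genes. Atf4, Dbp, Csf2rb, Irf8, Runx1, Trib3, Ptgs2 and the cell type markers given with values fall outside this rule and were named after their values were seen.

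Both groups carry the numbers 1 to 6. Deviations from the group means correlated across genes at 0.581, 0.466, 0.544, 0.599, 0.762 and 0.783 between equal numbers, all above the bound of 0.1. Between unequal numbers the values ran from -0.647 to 0.805 (median -0.474), and the highest lay above all those of equal numbers. The split of the libraries into classes was left in these deviations, so the bound can be passed without pairing. It cannot decide whether equal numbers are pairs. The block fits took them as pairs, a choice that rests on the data and not on the labels. Only 3 of 6 HDM libraries correlated best with their own number. Members, lists and tests were chosen with earlier results of these data known.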

Additional observations from a re-analysis of the deposited data

Results flagged for a closer look

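Of 88 groups of 6 libraries (44 named genes), 5 had a library far from the rest by Dixon's test, which picks about 5% by chance. The HDM library numbered 4 was high for Cebpzos, at 7.67 CPM with the next at 6.88, and the HDM library numbered 1 was low for Ep300, at 133 CPM with the next at 149. The vehicle library numbered 3 was high for 3 neutrophil granule genes: Ngp at 0.969 CPM with the next at 0.162, S100a9 at 1.13 with the next at 0.162, and Lcn2 at 0.661 with the next at 0.296. Without that library, Ngp was called higher with HDM (log2 fold change 2.70, adjusted p = 0.0319 by edgeR), as was S100a9 (2.09, 0.0429), while Lcn2 was not (0.79, 0.247). With all libraries the estimates were 0.78 for Ngp (adjusted p = 0.880), 0.61 for S100a9 (0.914) and 0.30 for Lcn2 (0.938). The other tested neutrophil markers, S100a8 at -0.02 and Mmp8 at 0.08 with all libraries, were not run without that library. None of the 12 groups of the 6 members held such a library.

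The HDM effect on Fos differed between libraries numbered 5 and 6 and libraries numbered 1 to 4, by -0.93 ± 0.16 SE on the log2 scale (interaction adjusted p = 0.0320 by edgeR). It was 2.17 in numbers 5 and 6 and 3.09 in numbers 1 to 4.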

How the results depend on the processing

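Cebpd kept its call and direction in all 30 alternatives (log2 fold change 1.25 to 1.47, highest adjusted p 0.000803). Cebpa, Cebpz and Spi1 were called in none of theirs. Spi1 lay between -0.02 and 0.02 and Cebpz between -0.02 and 0.03, with signs that turned with the setting. Another scaling took the median of all genes to -0.02 at most. Cebpb was called in 13 of its 30 alternatives and not in 17. It gained its call with DESeq2 (0.52), with the replicate block (0.52) and with numbers 5 and 6 alone (0.50). Leaving out 1 library gave 0.42 to 0.60 (called only without vehicle 3). In alternatives added after the data were seen it was also called: in the block fit without numbers 1 to 6 in turn (0.54, 0.47, 0.52, 0.58, 0.54 and 0.51), with neighbouring numbers summed (0.49), with DESeq2 and the block (0.53) and with numbers 1 to 4 and the block (0.53). Cebpg gained a call with numbers 1 to 4 alone (0.13), there with the block (0.13), and in the block fit without number 5 (0.12).

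The 727 calls became 1990 with the block (1069 higher, 921 lower), and, in the block fit without numbers 1 to 6 in turn, 1644 (978 higher and 666 lower), 1700 (913 and 787), 1722 (976 and 746), 1687 (966 and 721), 1799 (1017 and 782) and 1786 (1018 and 768). They became 1656 with neighbouring numbers summed (910 and 746), 1576 with DESeq2 and the block (920 and 656), 1741 with numbers 1 to 4 and the block (1083 and 658), 683 higher with numbers 1 to 4, and 1139 with numbers 5 and 6 (567 lower). Members called ran from 1 to 3, with 2 for DESeq2, the block, numbers 5 and 6 and without vehicle 3, 2 for numbers 1 to 4 (Cebpd and Cebpg), and 3 in the block fit without number 5 or with numbers 1 to 4 alone. The difference between numbers 5 and 6 and numbers 1 to 4 was called for 11 genes, and for 64 with the block. The cause of these changes was not tested. Of 1137 values of the other 38 named genes, 35 lost and 59 gained a call and none reversed. Depth limits Cebpe, with 184 reads over the HDM and 127 over the vehicle libraries, and the neutrophil genes Ngp (100 and 52), S100a9 (113 and 68) and Lcn2 (102 and 69). Atf4, Dbp, Csf2rb, Irf8, Runx1, Trib3 and Ptgs2 were not run under the alternatives other than the block.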
